A study of Mus musculus with 8 samples.

Results

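The tricarboxylic acid (TCA) cycle enzymes and the enzymes that make or use 2-oxoglutarate were examined in *iMLL-AF9* mouse cells treated with the prolyl hydroxylase inhibitor IOX5 or with its vehicle DMSO. The 8 genes are *Cs*, *Idh1*, *Idh2*, *Idh3a*, *Ogdh*, *Fh1*, *Mdh2* and *Glud1*. They were taken by symbol from GENCODE M21, through the Ensembl identifiers of the count files, and are 8 of the 54838 genes listed. All 8 were among the 12405 genes that had enough reads to be tested.

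The RNA-seq series compares 4 DMSO samples with 4 IOX5 samples, numbered 1 to 4 in each group. All 8 samples are labelled as leukaemic stem cells of mouse bone marrow with the genotype WT, and their titles name the *iMLL-AF9* allele, an *MLL-AF9* fusion oncogene that doxycycline switches on. The methods call the RNA source leukemic cells, whereas the data set description speaks of preleukaemic cells. For these samples the sources used here give no dose, no duration of treatment, no age and no meaning for the replicate numbers, so the p-values measure only the spread between these samples.

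The TCA cycle is the mitochondrial ring of reactions that oxidizes acetyl groups to carbon dioxide and delivers electrons to the respiratory chain. Its intermediate 2-oxoglutarate lies where carbon from glucose meets carbon from glutamine. 2-Oxoglutarate is also the co-substrate of the HIF prolyl hydroxylases, the oxygen-sensing enzymes that mark the transcription factor HIF for destruction and that IOX5 inhibits, and fumarate and succinate can compete with it there. Hypoxia and HIF are known for raising glycolytic genes and *Pdk1*, a kinase that limits the entry of pyruvate into the cycle.

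Reads counted on genes ranged from 12343770 to 14116054 in the DMSO libraries and from 11351507 to 12708888 in the IOX5 libraries. Each of the 8 genes had between 1063 and 6340 reads in every library, with *Fh1* the lowest and *Cs* the highest. Levels are given as CPM, counts scaled to a common library size with TMM factors, and changes as the log2 fold change of IOX5 over DMSO. A gene was called when its Benjamini-Hochberg adjusted p over all 12405 genes was under 0.05 by edgeR's quasi-likelihood test. Replicate numbers were left out of that fit. Since equally numbered libraries deviated alike, the adjusted p of another model, with the number as a block, stands beside each call it changes. Among 10 tested HIF target genes, 5 were called higher, against 0.774% of all genes tested. *Pdk1* rose from 168.1 ± 17.5 to 267.2 ± 7.02 CPM (SD, n = 4 each; edgeR adjusted p = 0.0157).

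The members had 6 genes with a log2 fold change below 0 and 2 above it, and a median of -0.21 against 0.02 over all genes tested. IOX5 lowered 1 of the 8, *Idh3a*, at the threshold of the comparison without a block, where 1.25% of all genes tested were called lower and 0.774% higher. With the replicate block, *Cs*, *Idh3a*, *Ogdh* and *Fh1* were called lower, 4 of 8 members against 9.43% of all genes lower and 11.2% higher. DESeq2 called *Cs* and *Idh3a* lower, with 4.85% of all genes called lower and 3.94% higher. No member was called higher by edgeR with or without the block or by DESeq2, and none of the members above 0 had an unadjusted p under 0.05 by edgeR. The groups did not overlap, with IOX5 lower, for *Cs*, *Idh3a* and *Glud1*, 3 of 8 members against 8.3% of all genes tested. For higher values in IOX5 the share of all genes was 5.98%, and no member was among them. The members were chosen with earlier results of these data known, so these shares are a scale and not a test.

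**Figure D1:**
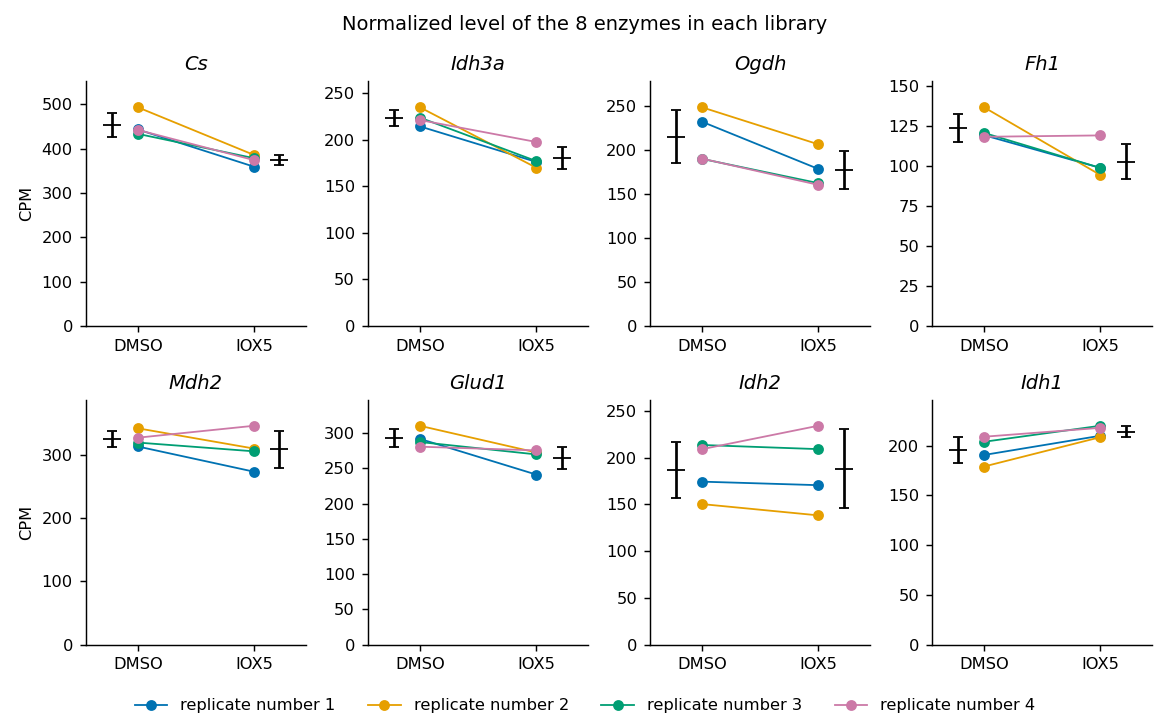
Normalized level (CPM, linear axis from 0) of the 8 genes in each library, with DMSO on the left and IOX5 on the right of each panel. Points joined by a line share a replicate number, and the bars beside them give the mean and SD of the 4 libraries. The 4 IOX5 values of *Cs*, *Idh3a* and *Glud1* lie below all 4 DMSO values, whereas the *Idh2* values are spread from 138.3 to 234.2 CPM and follow the replicate number.

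*Cs* (ENSMUSG00000005683; GRCm38 chromosome 10, 128337734 to 128362479, plus strand) encodes citrate synthase, which joins acetyl-CoA to oxaloacetate at the entry of the cycle. The DMSO libraries 1 to 4 held 443.1, 493.1, 433.2 and 442.1 CPM, and the IOX5 libraries 359.2, 385.7, 378.4 and 374.0 CPM. Every IOX5 value lay below every DMSO value, and the highest DMSO value, that of number 2, stood apart from the rest. The log2 fold change was -0.27 ± 0.06 (SE), with an adjusted p of 0.0526 by edgeR. With the replicate block it was 0.00899, and DESeq2 gave 0.000567. Leaving out single libraries without the block moved the log2 fold change between -0.30 and -0.23 and the adjusted p between 0.0554 and 0.168.

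*Idh3a* (ENSMUSG00000032279; chromosome 9, 54586334 to 54604661, plus strand) encodes the catalytic alpha subunit of the NAD-dependent mitochondrial isocitrate dehydrogenase, which makes 2-oxoglutarate in the cycle. Its DMSO values were 214.2, 234.6, 223.6 and 221.0 CPM, and its IOX5 values 176.1, 170.0, 177.0 and 197.5 CPM. The groups did not overlap, and IOX5 number 4 was the nearest to the DMSO range. *Idh3a* fell by 0.31 on the log2 scale, with an SE of 0.06 and an adjusted p of 0.0471 by edgeR, or 0.00625 with the replicate block. Other scalings ended the call without the block, with an adjusted p of 0.0549 for RLE and 0.0586 for upper-quartile factors, as did testing without a filter on low counts (0.103). Leaving out any library other than IOX5 replicate 4 (0.0293) also ended it, with values up to 0.161 without DMSO replicate 4.

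The other isocitrate dehydrogenases use NADP. *Idh2* (ENSMUSG00000030541; chromosome 7, 80094846 to 80115392, minus strand) encodes the mitochondrial form. Its DMSO values were 174.3, 150.3, 213.6 and 209.1 CPM, and its IOX5 values 170.6, 138.3, 209.2 and 234.2 CPM. The libraries numbered 1 and 2 were lower than those numbered 3 and 4 in both groups, and the 2 groups covered nearly the same range. The log2 fold change was 0.01 with a 95% interval from -0.38 to 0.40, and with the replicate block the interval ran from -0.15 to 0.14.

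*Idh1* (ENSMUSG00000025950; chromosome 1, 65158616 to 65186500, minus strand) encodes the cytosolic and peroxisomal form. It held 190.7, 179.0, 203.9 and 209.0 CPM with DMSO and 210.0, 208.5, 220.0 and 217.9 CPM with IOX5. The groups overlapped only through DMSO number 4 and IOX5 number 2. Its log2 fold change of 0.13 was the highest of the 8, with a 95% interval from -0.01 to 0.27, and it did not pass the test (edgeR adjusted p = 0.285, or 0.147 with the replicate block).

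*Ogdh* (ENSMUSG00000020456; chromosome 11, 6291633 to 6356642, plus strand) encodes the E1 subunit of the 2-oxoglutarate dehydrogenase complex, which consumes 2-oxoglutarate. DMSO values were 232.2, 248.6, 190.0 and 190.2 CPM and IOX5 values 178.6, 206.6, 162.4 and 160.4 CPM. The groups overlapped because numbers 1 and 2 were higher than 3 and 4 with either treatment, the reverse of *Idh2*. *Ogdh* had a log2 fold change of -0.28 ± 0.12 (SE). The adjusted p by edgeR was 0.219 without the block and 0.00748 with it, and the SE with the block was 0.06.

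*Fh1* (ENSMUSG00000026526; chromosome 1, 175600374 to 175625635, minus strand) encodes fumarate hydratase, which turns fumarate into malate. It held 119.2, 136.6, 120.7 and 118.2 CPM with DMSO and 98.8, 94.4, 98.8 and 119.1 CPM with IOX5. With IOX5, 3 libraries lay below every DMSO library, and IOX5 number 4 lay within the DMSO range. Its log2 fold change was -0.27 ± 0.09 (SE), with an adjusted p by edgeR of 0.137, or 0.0302 with the replicate block. Without IOX5 replicate 4 the unblocked value was 0.0398.

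*Mdh2* (ENSMUSG00000019179; chromosome 5, 135778480 to 135790398, plus strand) encodes the mitochondrial malate dehydrogenase, which regenerates oxaloacetate. DMSO values of 313.8, 342.6, 320.0 and 327.7 CPM stood against IOX5 values of 273.8, 310.5, 306.1 and 346.6 CPM. The highest of the 8 values came from IOX5 number 4, and the other IOX5 values were the lowest. The log2 fold change was -0.08 with a 95% interval from -0.25 to 0.09.

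*Glud1* (ENSMUSG00000021794; chromosome 14, 34310727 to 34345265, plus strand) encodes glutamate dehydrogenase, which converts glutamate to 2-oxoglutarate. It held 291.7, 310.2, 287.2 and 280.6 CPM with DMSO and 241.1, 272.5, 269.7 and 275.4 CPM with IOX5. All IOX5 values were below all DMSO values, by a small margin. The log2 fold change of -0.14 (95% interval from -0.28 to -0.0035) was not called (edgeR adjusted p = 0.236, or 0.132 with the replicate block).

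The promoter sequences of the called members *Cs*, *Ogdh* and *Fh1* are given because HIF binds DNA at a short core, ACGTG or GCGTG, which can be looked for in them. The RefSeq table of GRCm38.p6 holds a window for 7 of the 8 members and none for *Idh3a*. It holds 6 windows for *Ogdh* and 2 for *Idh1*. For each of these genes only 1 window was read, so their other annotated starts are not covered. Each sequence covers the 250 bases before the annotated start, 5′ to 3′ on the gene's strand, with the core letters on either strand in capitals (CACGT and CACGC are the cores read from the other strand). The windows are chr10:128337477-128337726 on the plus strand for *Cs*, chr11:6291409-6291658 on the plus strand for *Ogdh* and chr1:175625636-175625885 on the minus strand for *Fh1*. The last bases of the *Ogdh* window lie within the first exon of the GENCODE model. The windows of *Idh1*, *Idh2* and *Mdh2*, whose sequences are not printed, also reach past the GENCODE start of their gene.
Cs: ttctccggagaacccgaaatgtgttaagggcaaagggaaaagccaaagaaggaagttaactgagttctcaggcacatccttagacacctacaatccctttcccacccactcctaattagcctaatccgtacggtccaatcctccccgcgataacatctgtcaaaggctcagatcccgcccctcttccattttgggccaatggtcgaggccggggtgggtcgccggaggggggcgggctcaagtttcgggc
Ogdh: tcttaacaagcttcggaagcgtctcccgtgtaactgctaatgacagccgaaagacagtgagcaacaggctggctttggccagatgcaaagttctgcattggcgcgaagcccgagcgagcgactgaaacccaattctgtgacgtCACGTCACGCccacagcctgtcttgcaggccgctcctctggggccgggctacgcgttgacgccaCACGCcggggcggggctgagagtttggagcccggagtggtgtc
Fh1: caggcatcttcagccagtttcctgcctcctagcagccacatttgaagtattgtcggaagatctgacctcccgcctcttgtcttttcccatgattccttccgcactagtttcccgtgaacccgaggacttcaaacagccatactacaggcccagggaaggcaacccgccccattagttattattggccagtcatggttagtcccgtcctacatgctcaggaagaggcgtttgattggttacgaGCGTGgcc

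The *Cs* window held neither form of the core, the *Ogdh* window 1 ACGTG and 2 GCGTG, of which an ACGTG and a GCGTG stand side by side, and the *Fh1* window 1 GCGTG next to the start. Of the 7 members with a window, 5 held at least 1 core, against 38.6% of the 32851 windows in the table. The share of G and C letters in the member windows ran from 52.8% for *Fh1* to 82% for *Glud1*. The windows of the table were not matched to the members for this share. *Glud1* held 3 GCGTG, *Idh2* and *Mdh2* held 1 GCGTG each, and the *Idh1* window that was read held neither form. The GCGTG of *Mdh2* lay past the GENCODE start of that gene. ACGTG was in 16.6% and GCGTG in 28.2% of all windows. The CCAAT letters, searched on both strands as well, were in 5 of the 7 member windows and in 33.8% of all windows. These matches are descriptions of letters. Among the members called lower with the replicate block, the core was in *Ogdh* and *Fh1* and not in *Cs*, and *Idh3a* had no window. A link between the core and the calls was not tested.

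In bulk samples fewer cells of a type and less RNA per cell cannot be told apart. The summed level of the 8 genes was 1979 to 2095 CPM in the DMSO libraries and 1708 to 1925 CPM in the IOX5 libraries, and the highest IOX5 value was again that of number 4. Reads from some related copies of the members were few: the citrate synthase-like gene *Csl* had 2 reads in all 8 libraries together, the pseudogene *Glud-ps* 10, and *Mdh1b* 0. *Ogdhl*, a gene related to *Ogdh*, was the exception, with 1983 reads against 19771 for *Ogdh*. No member shares exon sequence positions with another annotated gene on either strand.

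Within replicate numbers, the IOX5 library was lower than the DMSO library of the same number in all 4 numbers for *Cs*, *Idh3a*, *Ogdh* and *Glud1*. This held for 4 of 8 members, against 19.8% of all genes tested. *Idh1* was higher in all 4 numbers, as were 21.3% of all genes. *Ogdh* had the narrowest set of differences among the called members, from -0.38 to -0.23 on the log2 scale. *Cs* ran from -0.35 to -0.20 and *Idh3a* from -0.47 to -0.16. *Fh1* had the widest set, from -0.53 in number 2 to 0.01 in number 4.

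**Figure D2:**
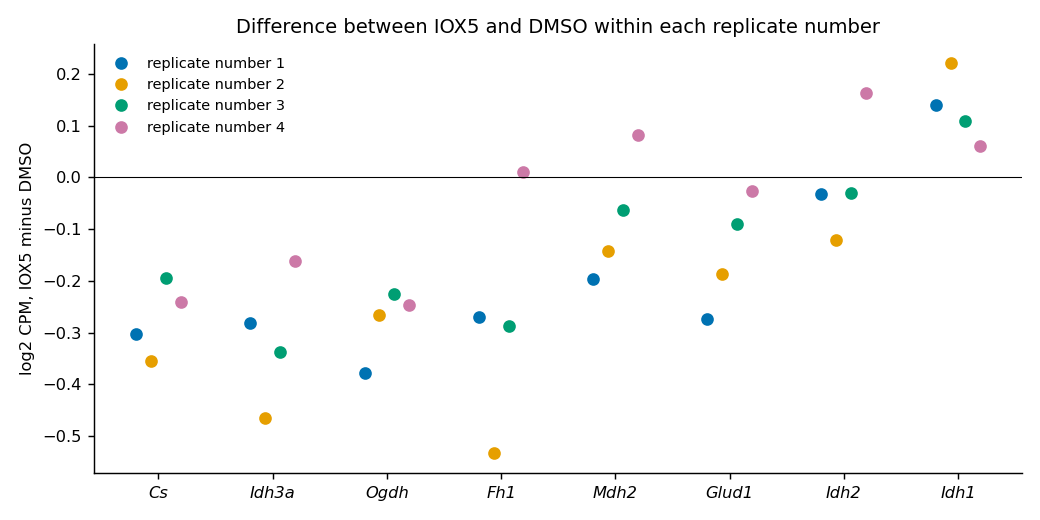
Difference in log2 CPM between the IOX5 and the DMSO library of the same replicate number, for each of the 8 genes. Each point is 1 pair of libraries, and the line marks no difference. All 4 points of *Cs*, *Idh3a*, *Ogdh* and *Glud1* lie below the line and all 4 of *Idh1* above it, while number 4 gave the highest difference for *Fh1* (0.01), *Mdh2* (0.08) and *Idh2* (0.16).

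The 8 genes differed in what their variation followed. For *Idh2*, 95.8% of the sum of squares of log2 CPM over the 8 libraries lay between replicate numbers and 0.00898% between treatments. *Ogdh* had 54.7% between numbers and 43.4% between treatments, which left 1.94%. For *Cs* and *Idh3a* the treatments took 84.7% and 84.6% and the numbers 11.2% and 5.03%. These shares are descriptions of 8 libraries and carry no test.

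**Figure D3:**
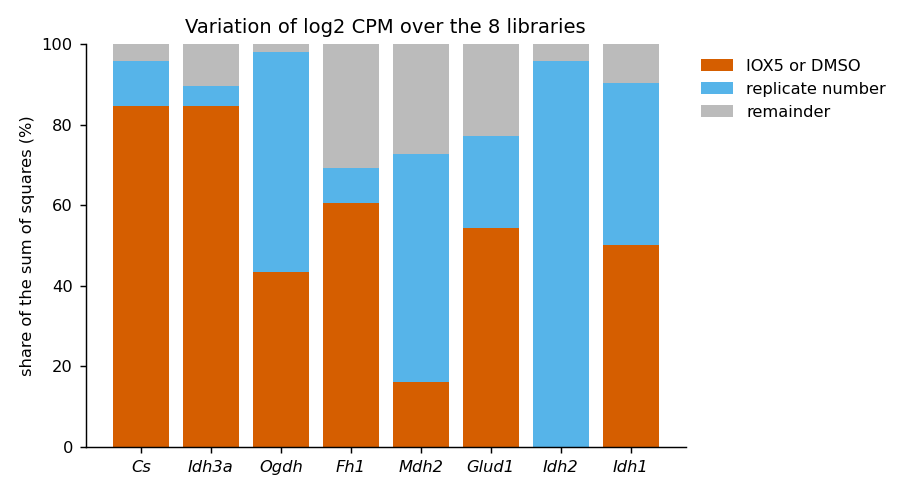
Share of the sum of squares of log2 CPM over the 8 libraries that lies between treatments, between replicate numbers and in the remainder, as stacked bars that add to 100% for each gene. The treatment share is largest for *Cs* (84.7%) and *Idh3a* (84.6%), and the number share is largest for *Idh2* (95.8%).

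The replicate numbers also differed in cell markers. The summed level of 7 leukocyte, myeloid and progenitor markers, all of them detected, was 2043 to 2587 CPM in the libraries numbered 1 and 2 and 4150 to 5060 CPM in those numbered 3 and 4. The markers did not move together: *Mpo* had a mean of 1258 CPM in numbers 1 and 2 and 3564 CPM in numbers 3 and 4. *Kit* and *Cd34* were also higher in numbers 3 and 4. *Ptprc*, *Hoxa9*, *Meis1* and *Itgam* were lower there, at 0.829, 0.882, 0.878 and 0.592 times their mean in numbers 1 and 2. By treatment the sum was 2043 to 4396 CPM with DMSO and 2343 to 5060 CPM with IOX5. *Kit*, *Mpo*, *Itgam* and *Cd34*, 4 of the 7, were called higher with the replicate block. The summed level of 5 mast cell and basophil markers was 125.6 to 251.5 CPM in numbers 1 and 2 and 442.2 to 748.6 CPM in numbers 3 and 4. Between treatments, the mast cell and basophil sum was 125.6 to 485.8 CPM with DMSO and 249.2 to 748.6 CPM with IOX5, and 5 of 5 of these markers were called higher with the replicate block. The sum of 6 macrophage markers was 147.6 to 205.7 CPM with DMSO and 224.7 to 500.2 CPM with IOX5, and 2 of the 5 tested were called higher with the block. Of 6 erythroid markers, 4 were tested and 2 were called higher with the block, and their sum was 5.13 to 23.7 CPM with DMSO and 8.61 to 40.9 CPM with IOX5. Beside these counts, 11.2% of all genes tested were called higher with the block. The part of these markers in the members' values was not tested. The sums of 5 T cell and 4 B cell markers stayed at or below 0.260 CPM, and *Cd4*, *Cd8a* and *Ms4a1* had no read in any library. Of the 5 stroma and endothelium markers, *Col1a2* had no read, 2 were tested, and *Pecam1*, which blood cells also express, made up most of a sum that reached 164.0 CPM with DMSO and 218.7 CPM with IOX5.

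Per kilobase of the union of annotated exons, *Mdh2* had the highest level with DMSO, 91.5 ± 3.49 CPM per kilobase (SD, n = 4). *Cs* followed at 78.4 ± 4.70, *Idh2* at 72.2 ± 11.6, *Idh1* at 70.6 ± 4.88 and *Glud1* at 69.5 ± 3.02 CPM per kilobase. The ranges of these last 3 genes overlapped, and those of *Idh2* and *Idh1* overlapped *Cs* as well, so their order was not resolved. *Idh3a* at 44.0 ± 1.68, *Ogdh* at 39.4 ± 5.46 and *Fh1* at 36.5 ± 2.57 CPM per kilobase closed the order, and the ranges of *Ogdh* overlapped those of both its neighbours. With IOX5 the levels per kilobase of *Idh1* (77.3 ± 2.06) and *Idh2* (72.7 ± 16.3) stood above that of *Cs* (64.8 ± 1.93), although the range of *Idh2* spanned that of *Cs*. The length used matters: per kilobase of the longest protein-coding transcript, *Idh3a* had 86.6 ± 3.30 CPM with DMSO, between *Idh2* (107.1 ± 17.2) and *Glud1* (86.3 ± 3.75), and *Cs* stayed next below *Mdh2* with IOX5, at 127.9 ± 3.82 CPM per kilobase.

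The IDH3 enzyme is built of alpha, beta and gamma subunits, and the subunit genes did not share 1 value. The regulatory subunit genes *Idh3b* (125.1 ± 4.09 to 118.1 ± 8.10 CPM, SD, n = 4 each) and *Idh3g* (134.5 ± 11.0 to 132.8 ± 12.9 CPM) had log2 fold changes of -0.08 and -0.02, the latter turning above 0 with upper-quartile factors. The log2 ratio of *Idh3a* to *Idh3b* was 0.84 ± 0.03 with DMSO and 0.61 ± 0.10 with IOX5, and that of *Idh3a* to *Idh3g* was 0.73 ± 0.14 and 0.44 ± 0.06 (SD, n = 4 each). Both ratios were lower in every IOX5 library than in every DMSO library. The exact two-sided permutation p was 0.0286 for each, the smallest that 4 against 4 allows, and 0.129 after adjustment over the 9 ratios examined, so neither passed.

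The 9 ratios compared isozymes of different compartments and partners in 1 reaction, and none passed the adjusted threshold, since the smallest adjusted p was 0.129. The ratio of cytosolic to mitochondrial malate dehydrogenase, *Mdh1* to *Mdh2*, differed by 0.19 on the log2 scale and was higher with IOX5 in 4 of 4 numbers (exact permutation p = 0.0571, adjusted 0.171). The ratio of *Ogdh* to *Dlst*, the E2 subunit gene of the same complex, differed by -0.17 and was lower in 4 of 4 numbers (exact permutation p = 0.171, adjusted 0.309). *Idh3a* to *Idh2* was also lower in 4 of 4 numbers, by -0.31 on average, with an exact permutation p of 0.143 (adjusted 0.309). The ratios of *Idh1* to *Idh2* and of *Got1* to *Got2* had exact permutation p-values of 0.486 and 0.343, with adjusted values of 0.546 and 0.441. Sign flips of the 4 within-number differences cannot give a p below 0.125.

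A further 56 genes of the pathway were listed, 50 of which were tested. Their log2 fold changes were below 0 for 33 and above 0 for 17, with a median of -0.06. By edgeR 0 of the 50 were called without the block, and limma voom also called 0. At an unadjusted p under 0.05, 10 of the 50 were lower and 0 higher, against 11.2% lower and 8.98% higher among all genes tested, which makes 2506 genes in both directions together. DESeq2 called 4 lower, with 4.85% of all genes called lower, and none higher. With the replicate block 8 of the 50 were called lower and 1 higher, against 9.43% and 11.2% of all genes.

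Among the 13 other enzymes and subunits of the cycle itself, 10 were below 0 and 3 above, with a median of -0.05. Only *Dld*, the E3 subunit shared by the 2-oxoglutarate and pyruvate dehydrogenase complexes, and *Ogdhl*, an *Ogdh*-like gene, were called in the fit with the block. *Dld* had 240.1 ± 22.3 CPM with DMSO and 205.0 ± 15.0 CPM with IOX5 (SD, n = 4 each; edgeR adjusted p = 0.168, or 0.0457 with the block). *Ogdhl* held 34.6, 22.8, 5.69 and 5.64 CPM with DMSO and 39.0, 36.1, 7.50 and 5.81 CPM with IOX5, so that its libraries differed more by number than by treatment (adjusted p = 0.834, or 0.0460 with the block). For *Dlst* the log2 fold change was -0.11. *Sdhc*, a membrane subunit of succinate dehydrogenase, had the smallest p of those above 0, with a log2 fold change of 0.04.

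The 14 tested genes of glutamine, transamination and 2-hydroxyglutarate metabolism held both ends of the pathway's log2 fold changes, from -0.88 to 0.54. The upper end was *Adhfe1*, named after its values were seen, with 208 reads in all 8 libraries together. It held 5.15 CPM in IOX5 number 2 and 1.39 to 1.84 CPM in the other IOX5 libraries, and was called in neither fit. With the block, 4 of the 14 genes were called lower: *Got1*, *Got2*, *Psat1* and *Bcat1*, which encode transaminases. The other tested transaminase genes of the list, *Gpt*, *Gpt2*, *Bcat2*, *Kyat1* and *Kyat3*, were called in neither fit, with log2 fold changes from -0.17 to 0.13. *Got1*, the cytosolic aspartate transaminase, held 52.6, 61.1, 44.8 and 49.8 CPM with DMSO and 38.0, 41.0, 34.5 and 40.6 CPM with IOX5. The groups did not overlap, and the log2 fold change was -0.43 ± 0.10 (SE; edgeR adjusted p = 0.0656, or 0.00177 with the block). *Got2*, its mitochondrial counterpart, had 207.2 ± 4.51 CPM with DMSO and 169.5 ± 15.3 CPM with IOX5 (SD, n = 4 each), and its edgeR adjusted p was 0.0686, or 0.00785 with the block.

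*Psat1*, of serine synthesis, went from 487.4 ± 27.0 to 367.0 ± 63.5 CPM (SD, n = 4 each), with no overlap and adjusted p-values by edgeR of 0.0980 and, with the block, 0.00240. *Bcat1*, the cytosolic branched-chain transaminase, differed chiefly by replicate number, at 15.7, 33.4, 60.3 and 62.1 CPM with DMSO and 4.64, 12.5, 33.8 and 42.1 CPM with IOX5. Its IOX5 library was lower within every number (adjusted p = 0.483, or 0.000487 with the block). *Psat1* and *Bcat1* are named after their values were seen. *D2hgdh*, which removes D-2-hydroxyglutarate, had a log2 fold change of 0.22 and was not called.

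Of the 7 tested mitochondrial and plasma membrane carriers, *Slc25a10*, the dicarboxylate carrier, held 46.0, 49.0, 43.5 and 42.1 CPM with DMSO and 33.3, 37.8, 30.7 and 35.5 CPM with IOX5. The groups did not overlap, and the log2 fold change of -0.40 ± 0.09 (SE) had an adjusted p of 0.0526 by edgeR, or 0.00329 with the block. *Slc25a13*, an aspartate-glutamate carrier named after its values were seen, had a log2 fold change of -0.26 and was called lower with the block (adjusted p = 0.0232). *Slc25a11*, the 2-oxoglutarate carrier, had a log2 fold change of 0.05.

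In the smaller groups, *Pck2*, the mitochondrial PEP carboxykinase that draws on oxaloacetate, had 99.8 ± 17.5 CPM with DMSO and 76.6 ± 11.7 CPM with IOX5 (SD, n = 4 each; edgeR adjusted p = 0.199, or 0.00426 with the block). *Pcx*, pyruvate carboxylase, was low at 7.63 ± 2.28 and 8.61 ± 2.68 CPM. Of the 6 tested cytosolic and malic enzymes and the 8 assembly and partner genes, none was called in either fit. *Acly*, which splits citrate in the cytosol, changed by -0.15 on the log2 scale and *Mdh1* by 0.11, neither past the test. *Lias*, which makes the lipoyl group of the dehydrogenase complexes, had one of -0.20, and *Mrps36*, a subunit that ties the 2-oxoglutarate dehydrogenase complex together, one of 0.30.

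The 6 genes left out for low counts were *Me3*, *Pck1*, *Gls2*, *Dhtkd1*, *Slc25a18* and *Slc25a21*, and *Me3*, *Pck1* and *Slc25a18* had no read in any library. Of 23 other pathway genes chosen for naming, 9 overlap exons of an antisense gene. The strand setting of the counting is not given in the sources used here, so reads of these genes and of their antisense partners may not have been told apart.

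**Figure D4:**
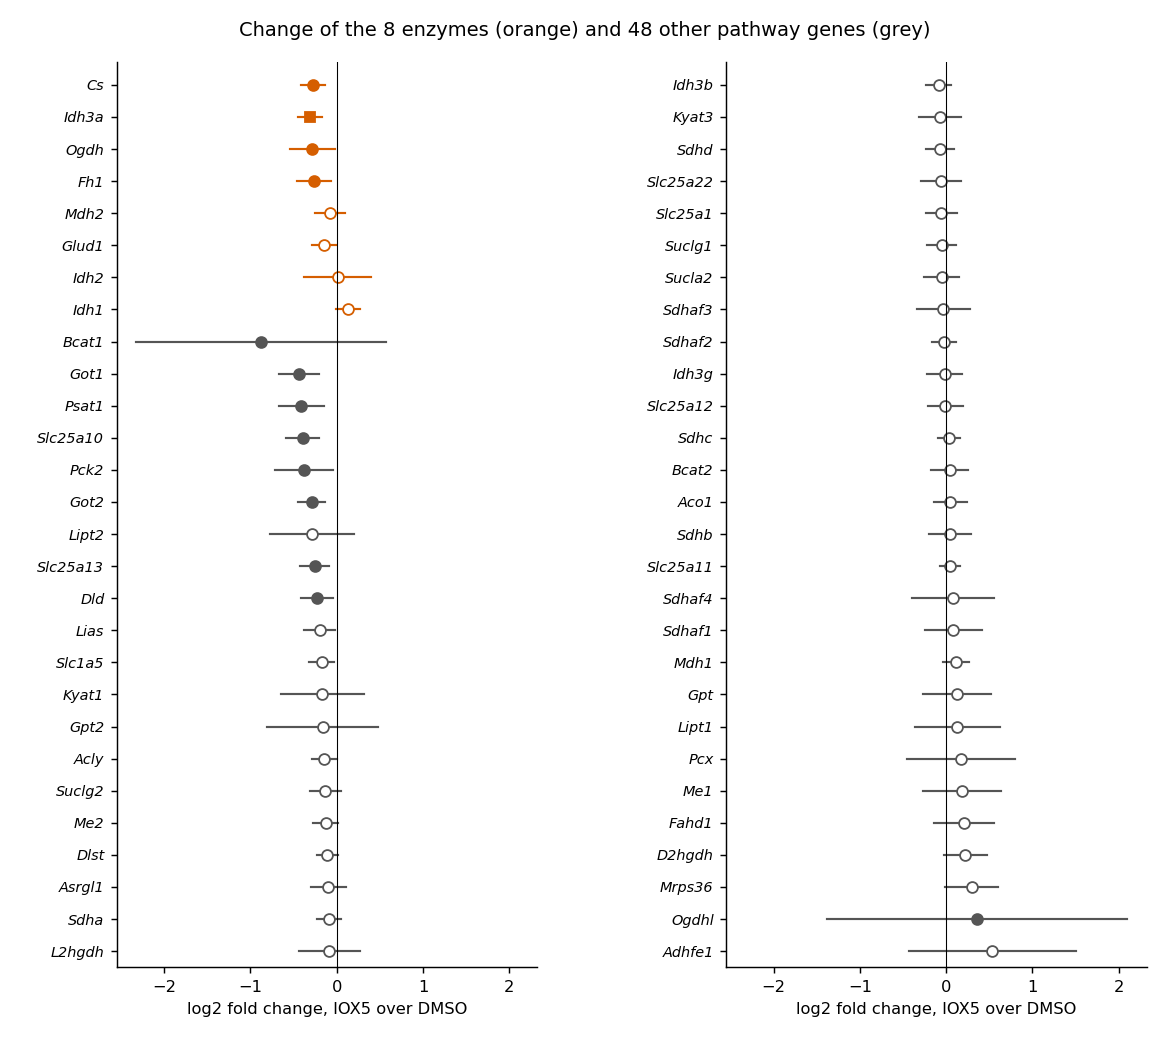
Log2 fold change of IOX5 over DMSO with its 95% interval (edgeR, no block) for the 8 genes (orange) and 48 of the other pathway genes tested (grey, in order of value). A square marks a gene called without the block and a filled symbol one called with it. *Idh3a* is the single square, and 13 symbols are filled, 12 of them below 0.

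Another 2 lists were set beside the members as a scale. All 16 tested glycolytic enzyme genes had a log2 fold change above 0, with a median of 0.38. Of them 8 were called higher, against 0.774% of all genes tested. The 24 nuclear-encoded respiratory chain genes had 19 log2 fold changes below 0 and 5 above it, with a median of -0.05. Without the block 0 were called. With it 1 was called higher and 1 lower, against 11.2% and 9.43% of all genes tested. The difference between these lists and the 8 enzymes was not tested.

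**Figure D5:**
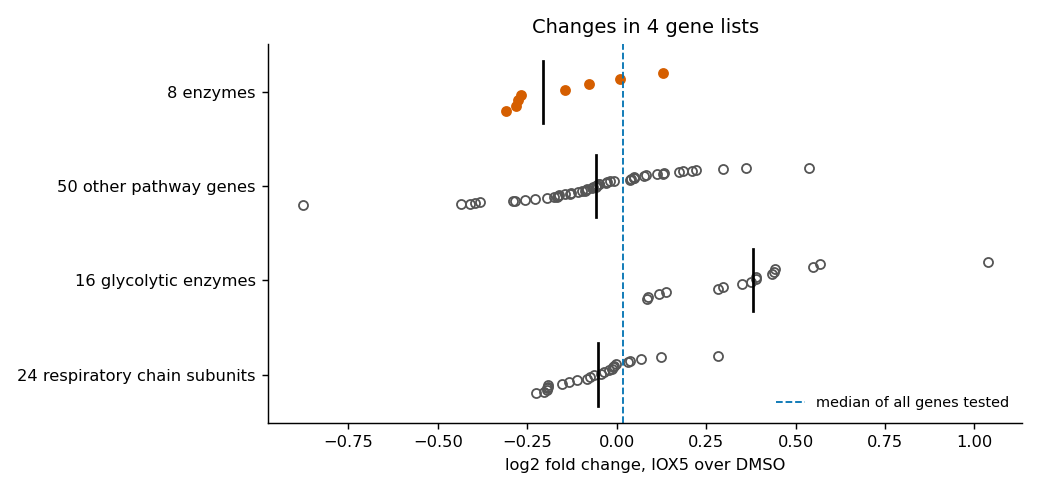
Log2 fold change of IOX5 over DMSO for each tested gene of 4 lists, 1 point per gene, with the median of the list as a black line and the median of all 12405 genes (0.02) as a dashed line. The 16 glycolytic genes lie above 0 with a median of 0.38, whereas 6 of the 8 enzymes lie below 0 with a median of -0.21.

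Likeness of pattern was measured as the root mean square difference of centred log2 CPM over the 8 libraries, among 8925 genes of at least 10 CPM. Nearest to *Cs* was *Pcbp2*, an RNA-binding protein gene, at 0.02, followed by *Sf3b4* and *Itfg2*. *Idh3a* was nearest to *Eif4e*, *Hspa4* and *Nars*, each within 0.03, which encode a cap-binding translation factor, a chaperone and an aminoacyl-tRNA synthetase. *Fh1* was nearest to *Hspa8*, *Ppm1g* and *Ddx39*, at 0.0305, 0.0327 and 0.0329, and *Ogdh* to *Emc1*, *Ogfod1* and *Fam217b*, at 0.04. Between members, *Idh3a* and *Fh1* were the most alike, at 0.05, and *Idh2* and *Ogdh* the least, at 0.43.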

How the data were processed

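RNA-seq counts of 8 *iMLL-AF9* samples (4 DMSO, 4 IOX5, grouped by label) were used. Per the labels and methods, the authors prepared directional libraries of poly(A) RNA, trimmed reads with cutadapt 1.18, mapped them to GRCm38 with HISAT2 2.2.1 and counted reads per gene with HTSeq 2.0.1. The deposited values are raw counts per Ensembl gene. Summary lines that name no gene (20.6% to 22.6% of each library's reads) were left out. Of 54838 identifiers, 54809 matched GENCODE M21.

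With R 4.3.3 and edgeR 4.0.16, filterByExpr kept 12405 genes, TMM factors (0.988 to 1.03) were computed and IOX5 was compared with DMSO by the quasi-likelihood test with Benjamini-Hochberg adjustment over all genes tested. Log2 CPM values used a prior count of 2. Alternatives were a replicate block, DESeq2 1.42.0, voom of limma 3.58.1, RLE and upper-quartile factors, other filters and each library left out. The blocked fits without 1 replicate number and the transcript lengths were added after seeing the data. Ratios were tested by exact permutation over 70 assignments, adjusted over 9 ratios. The edgeR fits with and without the block, DESeq2 and voom were tested on simulated data. That simulation did not cover the filters on low counts, the other scaling factors, left-out libraries or the likeness search.

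Deviations from the group means correlated between equally numbered libraries ( 0.758, 0.744, 0.732 and 0.636 for numbers 1 to 4), although numbers 3 and 4 also correlated crosswise (0.617 and 0.685). *Xist* had 19 and 1 reads in the 2 libraries numbered 1 and 14676 to 21314 in the others. The labels do not say what a number stands for, and the pairing rests on these values.

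The members and gene lists were chosen with earlier results of these data known. Named pathway genes were the partners in ratios, every gene called and, in each group, the gene with the smallest p in each direction. Genes named for their call with the block were chosen after their values were seen. Some genes and ratios of these lists are not reported here. Likeness was searched among genes of at least 10 CPM.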

Additional observations from a re-analysis of the deposited data

Results flagged for a closer look

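Among 80 groups of 4 values examined, over the members, the named pathway genes and the ratios, 5 held a library far from the other three. Chance flags about 1 in 20 such groups. DMSO replicate 2 was high for *Cs*, at 493.1 CPM. The same library was high for *Fh1*, at 136.6 CPM, and for *Aco1*, at 73.1 CPM. IOX5 replicate 1 was low for *Glud1*, at 241.1 CPM. DMSO replicate 1 was high for *Slc25a11*, at 101.4 CPM. The causes were not tested.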

How the results depend on the processing

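The counts of called genes depended on the model. Without the block 96 genes were higher and 155 lower. The replicate block gave 1394 and 1170, DESeq2 489 and 602, and without a filter on low counts 73 were lower. Leaving out single libraries gave 0 to 130 higher and 0 to 333 lower, and leaving out a replicate number from the blocked fit 994, 1119, 642 and 1355 higher and 650, 1016, 403 and 1058 lower, for numbers 1 to 4. In the 3 fits without calls (those leaving out number 3 or 4 of DMSO, or number 3 of IOX5), 1969, 1846 and 2111 genes had an unadjusted p under 0.05 by edgeR.

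For the members, 1 was called lower without the block. The replicate block called 4 and DESeq2 2. RLE factors, upper-quartile factors and no filter each called 0. Leaving out single libraries gave 0 to 2, with *Idh3a* and *Fh1* called without IOX5 replicate 4 and none called without any other library. The blocked fits without a replicate number gave 1 to 4, with *Idh3a* and *Ogdh* called in 3 of the 4 fits, *Cs* in 2 and *Fh1* in 1. Their highest adjusted p-values were 0.0566, 0.0560, 0.0564 and 0.125. No member was called higher in any fit run. Of the other pathway genes, called 0 lower and 0 higher without the block, the replicate block called 8 lower and 1 higher, DESeq2 4 lower, leaving out single libraries 0 to 1 lower, and the blocked fits without a number 7, 6, 5 and 8 lower and 0 to 1 higher. *Got1*, *Psat1*, *Bcat1* and *Slc25a10* were called in all 4 of these fits.

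The log2 fold change of *Idh2* turned to -0.0037 with the replicate block and -0.0041 with limma voom, ran from -0.11 to 0.13 without single libraries, and was -0.00031 and -0.057 in the blocked fits without numbers 1 and 4. *Idh3g* ran from -0.078 to 0.032 without single libraries and was 0.00045 with upper-quartile factors and 0.0012 in the blocked fit without number 3. Without single libraries *Pcx* ran from -0.0050 to 0.36, *Aco1* from -0.029 to 0.087 and *Ogdhl* from -0.066 to 0.96. Among members, the other 7 kept the sign of their log2 fold change in every alternative run. The causes were not tested. No log2 ratio moved by more than its SD under any alternative. Each member had at least 1063 reads in every library, and the 95% intervals of *Mdh2* (-0.25 to 0.09), *Idh1* (-0.01 to 0.27) and *Idh2* (-0.38 to 0.40) by edgeR without the block included 0.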
